A study of Mus musculus with 6 samples.

Results

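The unconventional myosins of the hair bundle were followed through the vestibular epithelium of mice exposed to a hair cell toxicant. The 8 genes (Myo7a, Myo15, Myo3a, Myo3b, Myo6, Myo1c, Myo1h and Myo10) were found by their symbols among the 52636 genes of the deposited count table, and each symbol matched 1 gene. Only Myo15 was downregulated beyond the thresholds used, and Myo7a, the member most often used as a hair cell (HC) marker, had mean normalized counts of 799 and 808 in Control and IDPN.

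The epithelia came from 3 Control mice and 3 mice exposed to IDPN (3,3'-iminodipropionitrile), a compound that damages the sensory HCs of the vestibular and auditory organs. All were males of the 129S1/SvImJ strain, aged 2 to 4 months, with no transgene or deletion named in the labels. IDPN mice drank water containing 30 mM of the compound for 8 weeks and Control mice drank plain water. The utricles and cristae of each animal were pooled into 1 bulk library, so regions, type I and type II HCs and other cells were measured together. All 6 libraries carry the same batch label, but the codes in the Control titles share a stem that is found in none of the IDPN titles. Whatever that stem marks cannot be told apart from exposure. Within the exposed group, the code of IDPN 1 has a different stem from that of IDPN 2 and IDPN 3.

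Each library held 40474847 to 43566332 estimated counts in total, and size factors between 0.825 and 1.21. The libraries within a group differed by more than sampling noise, with chi-square values of 38.6 to 157 per degree of freedom. HC markers were abundant in all 6 libraries, and the summed normalized counts of 22 of them ran from 56096 to 59441 in Control and from 35441 to 40470.4 in IDPN. Normalized counts are counts divided by a size factor that sets the typical gene level between libraries. In bulk tissue, fewer cells of a type and less RNA per cell cannot be told apart.

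Myosins are motors that move along actin by splitting ATP. The hair bundle of a HC is a staircase of stereocilia, each filled with parallel actin, and several unconventional myosins keep its shape and its transduction machinery in place. Myo7a works at the upper end of the tip link, the filament that pulls on the transduction channels, together with the scaffold proteins of Usher syndrome. Myo15 carries whirlin and Eps8 to stereocilium tips, and stereocilia stay short without it. Myo3a and Myo3b are motors with a kinase domain that bring espins to the tips. Myo6 walks towards the opposite end of actin and helps to anchor the apical membrane at the stereocilium base. Myo1c is a class I motor linked to adaptation of transduction, Myo1h is its close relative, and Myo10 is best known from filopodia.

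Promoter windows show the sequences from which transcription of some members starts. Those of Myo15 and Myo3b, which had the lowest fold changes, are given beside those of Myo7a (1.01) and Myo3a (1.28). Only Myo15 among them was called. Myo1c (1.24) and Myo10 (1.05) also had fold changes above 1, and their windows are not shown. Each window runs 300 bases 5′ to 3′ on the strand of the gene, from 250 bases before to 50 after a RefSeq start on GRCm38.p6. Capitals mark E-boxes (CANNTG, which reads the same on both strands), the letters recognised by basic helix-loop-helix factors such as the HC determinant Atoh1. All 8 members matched the RefSeq promoter table, with 13 windows between them. Of Myo7a, the window at chr7:98119444-98119743 on the minus strand is shown, that of Myo15 is chr11:60469089-60469388, that of Myo3b is chr2:70038876-70039175 and that of Myo3a is chr2:22227253-22227552, all 3 on the plus strand.
Myo15: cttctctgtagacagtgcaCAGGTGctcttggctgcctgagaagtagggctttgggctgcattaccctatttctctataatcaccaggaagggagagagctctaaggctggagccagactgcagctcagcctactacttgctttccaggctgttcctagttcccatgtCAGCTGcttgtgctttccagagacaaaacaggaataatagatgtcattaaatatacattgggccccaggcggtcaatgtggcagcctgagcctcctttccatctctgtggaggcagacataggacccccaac
Myo3b: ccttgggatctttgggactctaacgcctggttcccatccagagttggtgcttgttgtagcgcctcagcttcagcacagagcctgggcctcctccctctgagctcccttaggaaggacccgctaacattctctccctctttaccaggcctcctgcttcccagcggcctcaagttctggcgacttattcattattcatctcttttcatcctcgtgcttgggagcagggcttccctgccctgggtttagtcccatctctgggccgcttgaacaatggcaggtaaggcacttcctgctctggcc
Myo7a: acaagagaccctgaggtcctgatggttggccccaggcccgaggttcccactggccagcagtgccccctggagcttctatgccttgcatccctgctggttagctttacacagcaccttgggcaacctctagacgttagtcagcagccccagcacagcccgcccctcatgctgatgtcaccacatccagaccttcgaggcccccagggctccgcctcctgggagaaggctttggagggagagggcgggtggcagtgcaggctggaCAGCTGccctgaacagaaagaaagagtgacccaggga
Myo3a: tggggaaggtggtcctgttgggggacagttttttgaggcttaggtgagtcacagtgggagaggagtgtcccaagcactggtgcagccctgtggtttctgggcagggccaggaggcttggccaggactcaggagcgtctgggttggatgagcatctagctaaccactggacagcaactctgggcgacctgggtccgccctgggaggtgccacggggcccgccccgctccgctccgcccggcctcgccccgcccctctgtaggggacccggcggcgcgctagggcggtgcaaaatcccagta

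The Myo15 window holds 2 E-boxes, starting 231 and 82 bases before the start, the Myo7a window shown, the nearer of 2 to the annotated start of the gene, holds 1 at position 14 after the start, and the windows of Myo3b and Myo3a hold 0. Over all 32851 windows of this length in the table, 72.3% have at least 1 E-box. Myo15 has the lowest GC content of the 4 windows, at 51.0%, against 56.3% in Myo3b, 62.0% in Myo7a and 66.3% in Myo3a, and the median window has 52.7%. The Myo15 window has 1 CG dinucleotide and the Myo3a window 16, where the median window has 7. Low values also occur among the windows not shown, in members that were not called. The Myo10 window at chr15:25752956-25753255 has 48.0% GC, below that of Myo15, and 6 CG dinucleotides. Myo1c and Myo1h each have a window with 2 CG dinucleotides. The other windows of Myo10, Myo1c and Myo1h have 14 to 32. Low values were thus not limited to the member that was called. The other Myo7a window, chr7:98109199-98109498, holds 3 E-boxes, at 139 and 110 bases before and 43 after its start, and has 58.0% GC. Which start is used in this tissue was not tested. These matches describe letters only, and no binding was measured.

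With DESeq2, 1 of the 8 members was downregulated and 0 were upregulated in IDPN at an adjusted p (Padj) under 0.05 and a fold change above 1.5. Over the 17650 genes with a Padj, 3.42% were called lower and 2.32% higher, 5.75% in all. The edgeR test also called 1 member lower and 0 higher, where 2.19% of 16310 genes were lower and 1.02% higher, 3.21% in all. With size factors set by total counts, DESeq2 again called 1 member lower and 0 higher, beside 1.28% of 16712 genes lower and 3.64% higher, 4.92% in all. In the main test 2 members, both lower, had an unadjusted p under 0.05. No share over all genes is given for unadjusted p, here or for the lists below, so these counts cannot be set against it. The median log2-Fold_Change of the members was -0.03, beside 0.02 over all genes tested. Every IDPN library lay below every Control library for 3 members and above for 1, patterns that held for 11.4% and 11.1% of all genes tested.

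**Figure D1:**
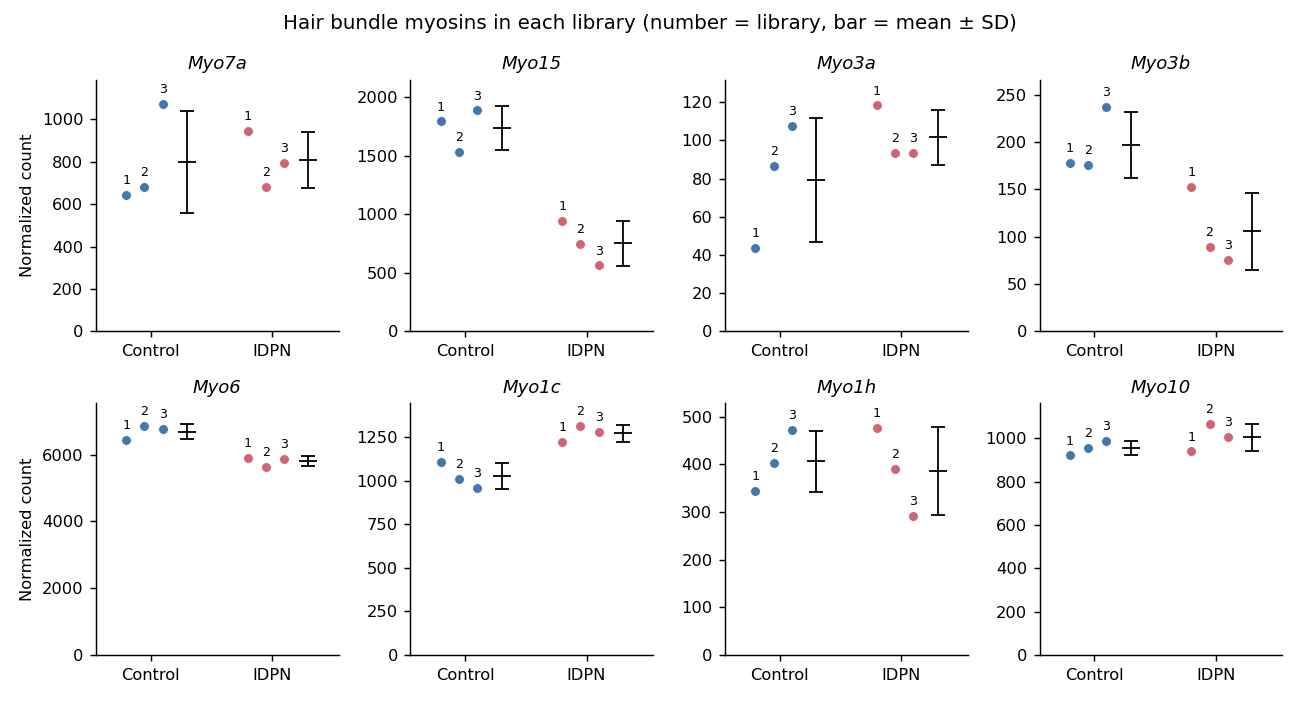
Normalized counts (vertical axis, from 0) of each bundle myosin in the 3 Control (blue) and 3 IDPN (red) libraries, numbered by library, with the mean and SD of each group as a bar beside the points. Myo15 separates into 1532 to 1890 in Control and 564 to 946 in IDPN, whereas the points of Myo7a, Myo3a, Myo1h and Myo10 overlap between groups.

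Myo15 (ENSMUSG00000042678.16, GRCm38 chromosome 11, 60469339 to 60528369, plus strand) is the motor that lengthens stereocilia. Control libraries 1 to 3 had 1795, 1532 and 1890 normalized counts, against 946, 749 and 564 in the IDPN libraries in the same order of numbering. The groups did not overlap, and the highest IDPN library was well under the lowest Control library. The mean fell from 1739 ± 186 (SD, n = 3) to 753 ± 191 (SD, n = 3), a log2-Fold_Change of -1.21 (SE 0.21, DESeq2 Padj = 8.13e-07), which left a fold of 0.433 with a 95% interval from 0.326 to 0.575. The edgeR test gave an adjusted p of 0.0089. Myo15 kept its call in all 12 alternatives, with the smallest change, -0.95 (DESeq2 Padj = 0.0176), when size factors were set by total counts.

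Myo3b and Myo3a, the kinase-bearing myosins of the tips, are paralogs whose fold changes had opposite signs. Myo3b (ENSMUSG00000042064.13, chromosome 2, 70039126 to 70429198, plus strand) had 178, 175 and 238 normalized counts in Control and 152, 89.4 and 75.6 in IDPN. Its IDPN libraries were all below its Control libraries, with IDPN 1 close to the Control values. The log2-Fold_Change was -0.90 (SE 0.32, DESeq2 Padj = 0.0674), with a 95% interval of the fold from 0.349 to 0.827, so that Myo3b missed the threshold on Padj. Without IDPN 1 it passed, at -1.25 (DESeq2 Padj = 0.00584), and with an offset for transcript length it also passed, at -0.95 (DESeq2 Padj = 0.0349), whereas edgeR gave an adjusted p of 0.158. Exons of Myo3b overlap those of Gm13631 on the same strand, but that gene had only 2.01 to 13.9 normalized counts.

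Myo3a (ENSMUSG00000025716.14, chromosome 2, 22227503 to 22618252, plus strand) had 43.7, 86.6 and 108 normalized counts in Control and 118, 93.4 and 93.3 in IDPN. Control 1 was low and the other libraries lay close together, so the groups overlapped. The log2-Fold_Change was 0.35 (SE 0.37, DESeq2 Padj = 0.724), with an interval of the fold from 0.77 to 2.12. It was 0.061 without Control 1 and 0.64 without Control 3. Myo3a was the member with the fewest reads, and the 36 estimated counts in Control 1 carry a 95% Poisson interval from 25.2 to 49.8, which covers counting error only.

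Myo7a (ENSMUSG00000030761.15, chromosome 7, 98051060 to 98119524, minus strand), the motor of the tip-link complex, had 643, 680 and 1074 normalized counts in Control and 947, 683 and 793 in IDPN. Control 3 and IDPN 1 were the highest, and the groups overlapped over most of their range. The log2-Fold_Change was 0.01 (SE 0.23, DESeq2 Padj = 0.987), and the 95% interval of the fold, 0.738 to 1.38, excludes a loss as large as that of Myo15. The sign was not stable, since the value ran from -0.12 without Control 1 to 0.29 without Control 3.

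Myo6 (ENSMUSG00000033577.18, chromosome 9, 80165031 to 80311729, plus strand), the motor of the stereocilium base, was the most abundant member. It had 6444, 6861 and 6775 normalized counts in Control and 5905, 5629 and 5882 in IDPN. All IDPN libraries were below all Control libraries, by a small margin. The log2-Fold_Change was -0.21 (SE 0.14, DESeq2 Padj = 0.485), and with size factors set by total counts it was 0.05. The 95% interval of the fold, 0.72 to 1.04, lies above that of Myo15.

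The class I members did not pass the test. Myo1c (ENSMUSG00000017774.19, chromosome 11, 75650504 to 75673910, plus strand) had 1111, 1013 and 959 normalized counts in Control and 1222, 1314 and 1283 in IDPN. It was the only member with every IDPN library above every Control library, at a log2-Fold_Change of 0.31 (SE 0.16, DESeq2 Padj = 0.299) that became 0.57 (DESeq2 Padj = 0.0882) with size factors set by total counts. Myo1h (ENSMUSG00000066952.11, chromosome 5, 114289166 to 114365357, plus strand) had 344, 403 and 472 in Control and 478, 391 and 291 in IDPN, with full overlap and a log2-Fold_Change of -0.07 (SE 0.24, DESeq2 Padj = 0.933). Its direction changed with total-count size factors (0.17), without Control 3 (0.05) and without IDPN 3 (0.09). Exons of Myo1h overlap those of Kctd10 on the opposite strand, and Kctd10 had 4100 to 6454 normalized counts. The sources used here do not say that counting used strand, so reads of this overlap cannot be assigned with certainty.

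Myo10 (ENSMUSG00000022272.17, chromosome 15, 25622525 to 25813673, plus strand) gave similar values in all libraries. Its normalized counts were 921, 953 and 988 in Control and 939, 1066 and 1005 in IDPN. The groups overlapped, and the log2-Fold_Change was 0.07 (SE 0.16, DESeq2 Padj = 0.893).

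The same libraries tended to hold the highest values of several members. Control 3 was the highest Control library for 6 members (all but Myo6 and Myo1c), and IDPN 1 was the highest IDPN library for 6 (all but Myo1c and Myo10). These were the libraries with the largest size factors of their groups, 1.12 and 1.21, and the part of this in the results was not tested.

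**Figure D2:**
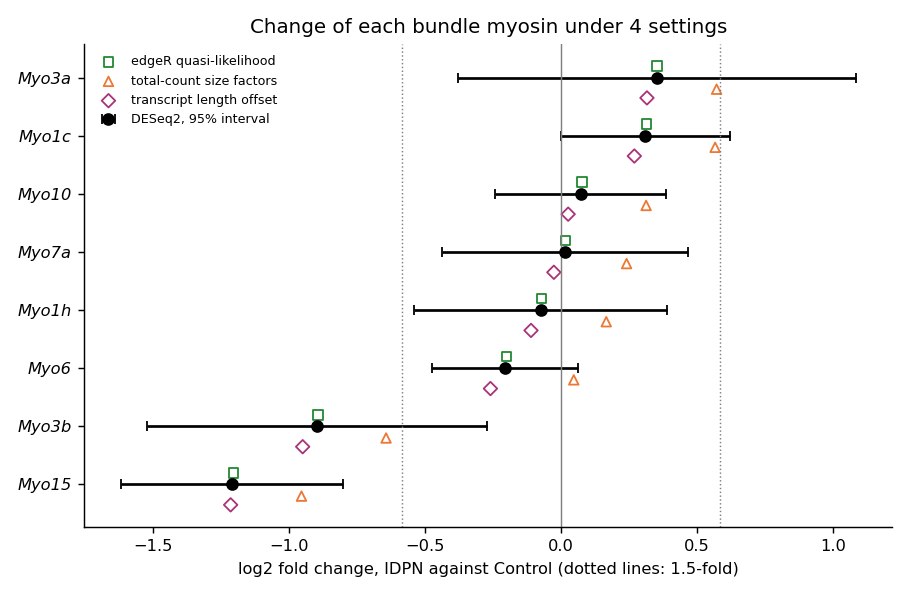
The log2 fold change of each bundle myosin, IDPN against Control (horizontal axis), by DESeq2 with its 95% interval (black) and by 3 other settings (open symbols), with dotted lines at a fold of 1.5. Only the intervals of Myo15 and Myo3b lie wholly below 0, and size factors set by total counts (triangles) shift all members upward.

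Size factors set by total counts moved the median log2-Fold_Change of 16418 genes by 0.25, and 26% of the calls were then lower in IDPN, against 59.6% in the main test. Under that scaling Myo6 and Myo1h turned positive, and Myo3b kept its direction, at -0.64 (DESeq2 Padj = 0.360).

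Levels were compared between members after division of counts by the length of the longest annotated transcript. In each library these counts per kb were scaled to sum to 1000000 over all genes with a known length. In Control, Myo6 stood first at 33.9 ± 7.06 (SD, n = 3), and its lowest library exceeded every library of every other member. Myo1c followed at 8.66 ± 1.13 (SD, n = 3), then Myo15 at 5.97 ± 1.66, Myo10 at 4.73 ± 1.07, Myo7a at 4.43 ± 2.24 and Myo1h at 3.59 ± 1.25 (SD, n = 3 each). Neighbours among these 5 overlapped in range and did not differ beyond their spread.

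Myo3b, at 1.29 ± 0.49 (SD, n = 3), lay below all of them without overlap, and overlapped Myo3a, at 0.653 ± 0.37 (SD, n = 3). In IDPN the order of the middle group changed. Myo6, at 37.0 ± 5.70 (SD, n = 3), and Myo1c, at 13.6 ± 1.29 (SD, n = 3), each stood apart from the next member. Myo15 moved from the third place to the sixth, at 3.27 ± 1.18 (SD, n = 3), below Myo10, Myo7a and Myo1h, although its range overlapped that of Myo1h. Myo3a, at 1.02 ± 0.28, came level with Myo3b, at 0.877 ± 0.45 (SD, n = 3 each). These values are shares of a library, so this scale gives an order within a group and not a change between groups. The order rests on the transcript chosen. With the median coding transcript, which is only 881 bases long for Myo10, Myo10 came first at 29.4 in Control, and Myo15 stood at rank 5 (4.82) in Control and rank 6 (2.58) in IDPN, a move of 1 place. Myo3a (0.982) then came above Myo3b (0.875) in Control with overlap, and Myo1c overlapped Myo1h in IDPN.

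**Figure D3:**
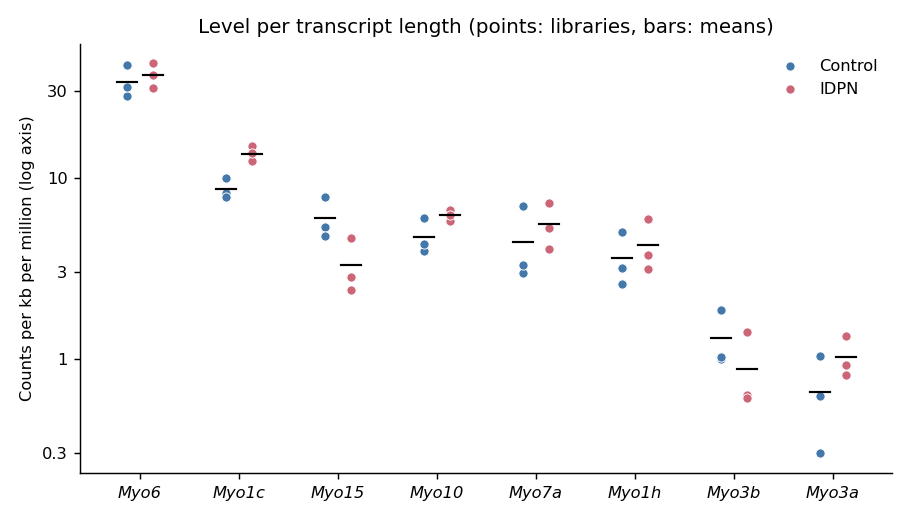
Level of each bundle myosin (vertical axis, logarithmic) in the libraries of Control (blue) and IDPN (red). Levels are counts per kb of the longest transcript, scaled to sum to 1000000 over all genes with a known length. Bars mark the means and members are ordered by their Control mean. Myo6 lies highest in both groups, from 28.3 to 42.7, and Myo15 moves from the third place in Control to the sixth in IDPN, but only from rank 5 to rank 6 with the median coding transcript.

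To set the members against the other HC transcripts, each was divided, within a library, by the geometric mean count of 21 HC markers, which makes the ratio free of size factors. Of the 22 HC markers listed, 8 were called lower and 1 higher by DESeq2, beside 3.42% and 2.32% of all genes tested. The median log2-Fold_Change of the 22 was -0.57. Every IDPN library lay below every Control library for 15 of them, a pattern that held for 11.4% of all genes tested. With total-count size factors 4 HC markers were called lower, at a median of -0.36, and over the libraries left out 7 (without IDPN 3) to 10 (without IDPN 2). Those called lower were Pou4f3, Gfi1, Otof, Tmc1, Lhfpl5, Calb2, Slc17a8 and Smpx. They include the HC transcription factors Pou4f3 (-1.001, DESeq2 Padj = 9.34e-10) and Gfi1 (-1.21, DESeq2 Padj = 2.87e-10), and Grxcr2, a stereocilium protein, was the one called higher (0.63, DESeq2 Padj = 0.00924), a call that was lost when Control 1 (0.61, DESeq2 Padj = 0.0644) or IDPN 2 (0.49, DESeq2 Padj = 0.0767) was left out. All 22 markers had counts in every library.

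Relative to this list, Myo15 was lower in IDPN. Its ratio was 1.52, 1.19 and 1.30 in Control and 1.07, 0.822 and 0.663 in IDPN, a mean log2 difference of -0.67. The groups did not overlap, and the two-sided exact permutation p was 0.10, the smallest that 3 against 3 libraries allow, with an adjusted p of 0.114 over the 8 members.

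For 6 members the ratio was higher in every IDPN library than in any Control library. The mean log2 difference was 0.36 for Myo6, 0.47 for Myo1h, 0.61 for Myo7a, 0.64 for Myo10, 0.87 for Myo1c and 1.01 for Myo3a, each with an exact permutation p of 0.10 (adjusted p = 0.114). The Myo7a ratio, for example, was 0.546, 0.528 and 0.739 in Control and 1.07, 0.750 and 0.932 in IDPN. Myo3b overlapped between groups, with a difference of -0.39 (exact permutation p = 0.40). The 8 ratios share their denominator, which itself was lower in IDPN, so they are not independent of each other. A member with an unchanged level therefore rises in this ratio, as Myo7a did with a log2-Fold_Change of 0.01. The share of all genes with such a ratio is not given, so the count of 6 cannot be set against it.

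Markers of other cells that the dissection could hold are given beside these ratios, because some members are also made outside HCs. Over all genes tested, 3.42% were called lower and 2.32% higher. Of 9 supporting cell markers 2 were called lower and 0 higher, and their summed normalized counts ran from 419030.5 to 610964 in Control and from 313334 to 369844 in IDPN. Of 8 neuronal markers 4 were called lower (Nefl, Nefm, Snap25 and Syt1), with sums from 6652 to 6800.3 in Control and from 4232 to 4512 in IDPN. The list was not uniform. Prph was higher in every IDPN library, with means of 12.7 in Control and 36.7 in IDPN (1.51, DESeq2 Padj = 0.148). Tubb3 (10.2 and 8.78) and Nefh (4.07 and 1.54) had few counts in both groups. Of 5 erythroid markers 4 were called higher, with sums from 16166 to 36635 in Control and from 34689 to 49091 in IDPN. Schwann cell (8 markers) and stroma (7 markers) had 1 called higher each, and endothelium (6) had 1 called lower. Their sums overlapped between groups.

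Macrophage (10), melanocyte (5), dark cell (5), and smooth muscle and pericyte (6) markers had 0 calls by DESeq2, with 3, 2, 2 and 0 at an unadjusted p under 0.05. Those of macrophages and melanocytes were higher in IDPN, and those of dark cells were lower. Skeletal muscle markers summed to only 20.7 to 48.5 normalized counts in any library, with 1 of 5 called lower. The part of these cells in the levels of the members was not tested.

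Ratios between members compared the motors with each other inside a library. The ratio of Myo15 to Myo7a was 2.79, 2.25 and 1.76 in Control and 0.999, 1.10 and 0.711 in IDPN, so that Myo15 counts exceeded Myo7a counts in all Control libraries and were close to or below them in IDPN. The mean log2 difference was -1.28 (exact permutation p = 0.10, the smallest possible, adjusted p = 0.20 over 4 ratios). The ratio of Myo3a to Myo3b was 0.245, 0.493 and 0.453 in Control and 0.777, 1.04 and 1.23 in IDPN. This difference of 1.40 on the log2 scale also left no overlap (exact permutation p = 0.10, adjusted p = 0.20).

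Ratios of Myo6 to Myo7a and of Myo3a to Myo7a overlapped between groups. Their mean log2 differences were -0.25 and 0.40, each with an exact permutation p of 0.30.

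**Figure D4:**
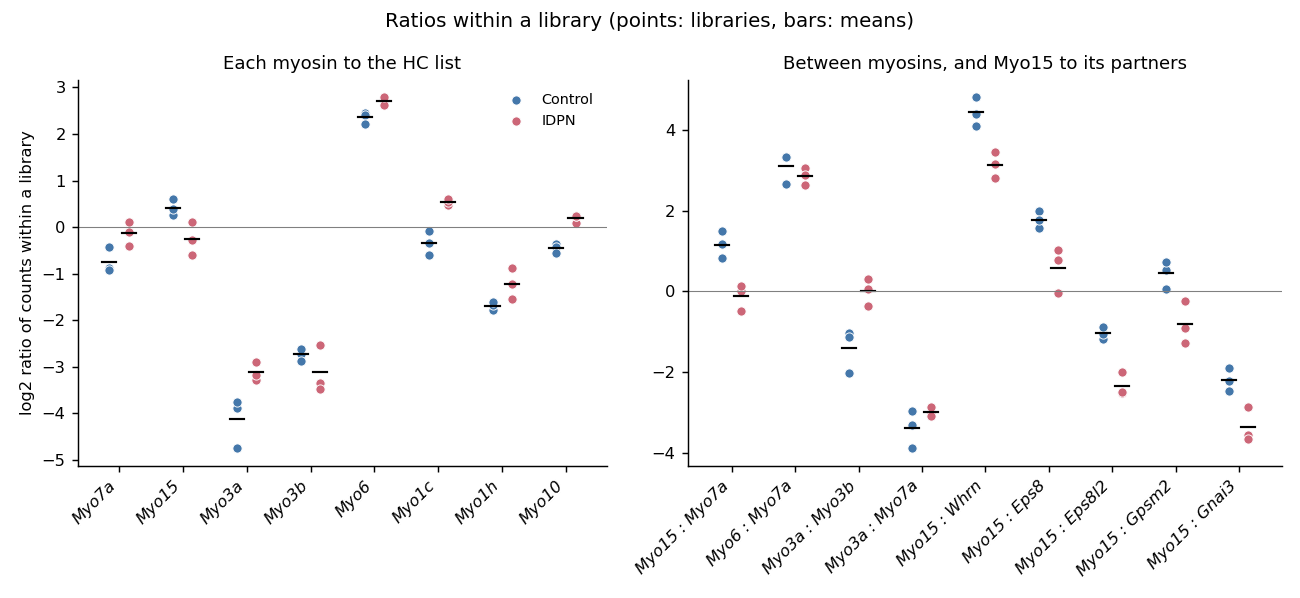
Log2 ratios of counts within each library (vertical axes) for Control (blue) and IDPN (red), with bars at the means, for each member against 21 HC markers (left) and for pairs of members and of Myo15 with its partners (right). Myo15 is lower in every IDPN library in each ratio that contains it, and Myo3a to Myo3b is higher in every IDPN library.

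The partners of Myo15, its cargoes and the proteins that travel with them, had log2 fold changes near 0. These are bulk levels, and the part of them that comes from HCs was not measured. Of 5 genes listed as its partners, 0 were called in either direction by DESeq2 or by edgeR, 0 had an unadjusted DESeq2 p under 0.05, and the median log2-Fold_Change was 0.02. Whrn, which encodes whirlin, had 64.3, 90.03 and 89.9 normalized counts in Control and 86.9, 84.3 and 80.3 in IDPN (0.04, SE 0.33, DESeq2 Padj = 0.9749). Eps8, an actin capping and bundling protein, had 451, 521 and 558 in Control and 462, 441 and 576 in IDPN (-0.05, SE 0.20, DESeq2 Padj = 0.945). Eps8l2, a relative of Eps8, was at 0.06 (DESeq2 Padj = 0.916), and the polarity proteins Gpsm2 and Gnai3 were at 0.02 and -0.07 (DESeq2 Padj = 0.978 and 0.915).

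The groups overlapped for all 5 partners. Whrn and Eps8 were chosen after their values were seen, as were the ratios of Myo15 to each partner. The ratio of Myo15 to Whrn was 27.9, 17.0 and 21.0 in Control and 10.9, 8.88 and 7.02 in IDPN, and that to Eps8 was 3.98, 2.94 and 3.39 in Control and 2.05, 1.70 and 0.979 in IDPN. All 5 ratios were lower in every IDPN library, with log2 differences from -1.30 to -1.17 (exact permutation p = 0.10 and adjusted p = 0.10 for each). They share their numerator. With the partners near 0, each ratio restates the lower level of Myo15, so these p-values are not a separate test.

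All 7 partners of Myo7a had a log2-Fold_Change below 0, with a median of -0.47, while Myo7a itself was at 0.01. The value was also below 0 for 21 of the 22 HC markers, with a median of -0.57, and for 8534 of the 17650 genes tested. With total-count size factors the median of these partners was -0.23 and 0 were called lower. In the main test 1 partner was called lower, beside 3.42% of all genes tested. This was Pcdh15, the lower strand of the tip link, with 334, 278 and 431 normalized counts in Control and 191, 138 and 152 in IDPN (-1.12, SE 0.25, DESeq2 Padj = 0.000554). It lost its call with size factors set by total counts (-0.88, DESeq2 Padj = 0.105).

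Cdh23, the upper strand, had 175, 186 and 288 in Control and 203, 90.4 and 105 in IDPN. IDPN 1 lay within the Control range, and the log2-Fold_Change of -0.70 (DESeq2 Padj = 0.258) became -1.14 (DESeq2 Padj = 0.0248) without it. Ush1c, which encodes the scaffold harmonin, was lower in every IDPN library, at -0.57 (DESeq2 Padj = 0.00527), but missed the 1.5-fold threshold. It was called without Control 3, IDPN 2 or IDPN 3, whereas its adjusted p was above 0.05 with edgeR (0.107), with total-count size factors (-0.31, DESeq2 Padj = 0.345), without Control 2 (DESeq2 Padj = 0.0607) and without IDPN 1 (DESeq2 Padj = 0.0646). Calml4, a light chain of Myo7a, was at -0.44 (DESeq2 Padj = 0.135), and Twf2, an actin capping protein, at -0.33 (DESeq2 Padj = 0.342).

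Of the 3 espin-related partners of Myo3a and Myo3b, 0 were called by either tool and 0 had an unadjusted DESeq2 p under 0.05, with a median of -0.22. Espn, which bundles the actin of stereocilia, was at -0.18 (DESeq2 Padj = 0.830), Espnl at -0.32 (DESeq2 Padj = 0.411) and Morn4, a cargo linker, at -0.22 (DESeq2 Padj = 0.544). Espnl was the only 1 of the 3 with no overlap between groups.

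Of the 9 partners of Myo6, 1 was called lower. This was Ptprq, a phosphatase of the stereocilium base, with 24047, 22930 and 20697 normalized counts in Control and 8588, 8218 and 6384 in IDPN (-1.55, SE 0.17, DESeq2 Padj = 5.09e-18). The study chose Ptprq among its shared downregulated genes partly on these libraries, so its direction is not independent evidence. The median of these partners was 0.07, and the membrane linker Rdx (0.07), Tom1 (-0.09) and the endocytic adaptor Dab2 (0.14) did not pass the test.

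Of the 3 light chain genes described, Calm2, a calmodulin gene, was called lower, at -0.96 (SE 0.18, DESeq2 Padj = 1.55e-05). It lost its call with edgeR (adjusted p = 0.0747). Calm3 was at -0.19 (DESeq2 Padj = 0.673) and the shared light chain Myl6 at -0.17 (DESeq2 Padj = 0.782). In all, 3 of the 27 partners were called lower and 0 higher by DESeq2, beside 3.42% and 2.32% of all genes tested. The median of the 27 was -0.18, and 8, all lower, had an unadjusted p under 0.05, for which no share over all genes is given.

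**Figure D5:**
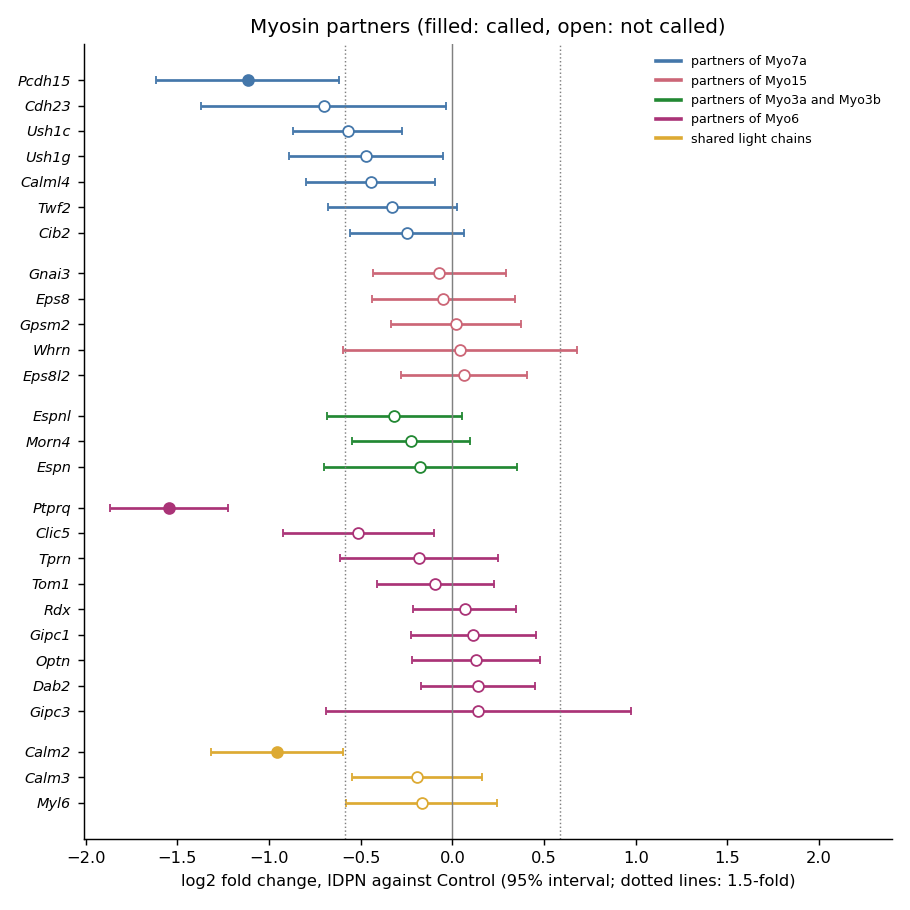
The log2 fold change of each of the 27 partner genes, IDPN against Control (horizontal axis), with its 95% interval by DESeq2, grouped by the myosin they work with, filled where called and open where not. The 5 partners of Myo15 lie near 0, between -0.07 and 0.06, whereas all 7 partners of Myo7a lie below 0.

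Myosins without a listed role in the bundle gave a comparison outside it. Of 20 such genes (16 unconventional and 4 nonmuscle conventional), 18 had a Padj and 0 were called by DESeq2 in either direction, with 0 at an unadjusted p under 0.05 and 0 called by edgeR. Their median was 0.14. The most abundant uncalled genes were, of the unconventional myosins, Myo1e (-0.20, DESeq2 Padj = 0.722), Myo18a (0.31, DESeq2 Padj = 0.393) and Myo9a (0.20, DESeq2 Padj = 0.723), and, of the nonmuscle myosins, Myh14 (-0.05, DESeq2 Padj = 0.937), Myh9 (0.44, DESeq2 Padj = 0.343) and Myh10 (0.08, DESeq2 Padj = 0.918). Myo5c, a motor of secretory vesicles, was named because it was called higher without Control 3 (0.80, DESeq2 Padj = 0.0231).

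Likeness of pattern was taken as Pearson's r of log2 normalized counts over the 6 libraries, against 60 genes of the partner, other myosin and HC lists, as a description of libraries that share the group difference. Myo15 was most like Ptprq (r = 0.97) and Lhfpl5, a component of the transduction complex (0.96). Myo3b was most like the transduction channel gene Tmc1 (0.96) and Cdh23 (0.94), and Myo6 most like Gfi1 (0.98) and Otof (0.96), which serves vesicle release at the HC synapse. The nearest genes to Myo7a were Clrn1 (0.84) and Strc (0.81), whose levels also overlapped between groups.

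Myo1h was most like Clrn1 (0.91) and Myo1e (0.87). Myo1c was most like Grxcr2 (0.89), the HC marker called higher, and less so Myo18a (0.72). Myo10 was most like the nonmuscle myosin Myh9 (0.96) and Myo18a (0.85). Myo3a, below 100 normalized counts on average, was not included.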

How the data were processed

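RNA was extracted from pooled vestibular epithelia of each animal and amplified with an oligo-dT primed SMARTseq2 protocol without molecular identifiers, so that PCR copies of 1 molecule count separately. The authors mapped reads to GRCm38 with STAR 2.5.3a and quantified genes with RSEM 2.3.0 on GENCODE annotation. The deposited values are estimated counts (expected counts) per gene, whole numbers without normalization, at 40474847 to 43566332 per library. RSEM divides reads that match several genes, so near-identical sequences, such as those of gene families, share an uncertain split.

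Counts were rounded and tested, without covariates, with the Wald test of DESeq2 1.42.0 (R 4.3.3), size factors by median of ratios and independent filtering at 0.05. A gene was called at an adjusted p under 0.05, Benjamini-Hochberg over all genes, and a fold change above 1.5. Alternatives were the quasi-likelihood test of edgeR 4.0.16, TMM and total-count size factors, a minimum of 10 counts in 3 libraries, no independent filtering, an offset for transcript length (lowess span 0.3) and leaving out each library. Ratios within a library used two-sided exact permutation tests of 3 against 3, which cannot give p under 0.10. The labels give no replicate numbers, and libraries were numbered in accession order. Each library is 1 animal, so p-values measure the spread between animals.

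Lengths and coordinates came from GENCODE M21, a later release than that of the authors, and promoters from RefSeq. One list symbol, Pjvk, was matched by its older name, and 1 gene of the partner lists is not reported here. Members, lists and tests were chosen with earlier results of these data known. Named genes were all members, all called genes of the partner, other myosin and HC lists, the 3 most abundant uncalled genes of each list, and the 2 genes most like each member with a mean of at least 100 normalized counts. The code was tested on simulated counts with 200 genes changed 4-fold. DESeq2 recovered 97% of these genes, and 12.2% of its calls were false. For edgeR the values were 95% and 7.3%.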

Additional observations from a re-analysis of the deposited data

How the results depend on the processing

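Myo15 was called lower in the main test and in all 12 alternatives. The count of members called lower was 1, and became 2 with the transcript length offset and without IDPN 1 (range 1 to 2 over the libraries left out), because Myo3b passed. The partners called lower were 3, and 2 with edgeR, where Calm2 was lost, or with total-count size factors, where Pcdh15 was lost. Over the libraries left out they ranged from 3 to 4, with Ush1c gained without Control 3, IDPN 2 or IDPN 3 and Cdh23 without IDPN 1. The HC markers called lower fell from 8 to 4 with total-count size factors, where Otof, Tmc1, Lhfpl5 and Calb2 were lost, and ranged from 7 to 10 over the libraries left out. The HC marker called higher, Grxcr2, was lost without Control 1 and without IDPN 2 (range 0 to 1), and the other myosins called higher ranged from 0 to 1, with Myo5c called without Control 3. Tmc1 also lost its call with edgeR and without Control 1, Control 3, IDPN 2 or IDPN 3, where the log2 fold change ran from -0.87 to -0.50 over the libraries left out. Cabp2 (-0.63 to -0.34) and Chrna10 (-0.67 to -0.41) were called without Control 3 or IDPN 2.

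With total-count size factors the log2 fold change turned positive for Myo6 (0.047), Myo1h (0.17), Gnai3 (0.18), Eps8 (0.19), Espn (0.034), Morn4 (0.029), Tom1 (0.17), Myl6 (0.086), Calm3 (0.076), Myo1e (0.037), Myh14 (0.19) and Clrn1 (0.086). With the length offset it turned negative for Myo7a (-0.026) and Gpsm2 (-0.00052). Over the libraries left out, the sign was not stable for Myo7a (-0.12 to 0.29), Myo1h (-0.25 to 0.092), Whrn (-0.11 to 0.12), Eps8 (-0.18 to 0.024), Eps8l2 (-0.040 to 0.17), Gpsm2 (-0.060 to 0.13), Gnai3 (-0.19 to 0.10), Espn (-0.48 to 0.11), Myh14 (-0.15 to 0.070), Myh10 (-0.056 to 0.24), Clrn1 (-0.31 to 0.079) and Strc (-0.40 to 0.040). With the median length of coding transcripts, the scaled Control level per length became 23.7 for Myo6 and 5.93 for Myo1c. It became 5.35 for Myo1h and 29.4 for Myo10, with Myo15 at 4.82, Myo3a at 0.982 and Myo3b at 0.875. The cause of these changes was not tested, other than the construction of each alternative.

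No paired analysis was made, because the Control and IDPN libraries came from different animals. Depth limits Myo3a most, with 36 to 143 estimated counts per library. With 3 animals in a group, the ratios could not reach an exact p under 0.10, which says nothing about their stability. Without a library, 1 group keeps 2 animals.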
